A study of Mus musculus with 4 samples.

Results

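Levels of 9 chemokine and homing receptor genes, Cxcr4, Cxcr5, Cxcr6, Cxcr3, Ccr2, Ccr6, Ccr7, Ccr10 and S1pr1, were compared across immune and stromal cell classes of mouse fat and between 30 °C and 4 °C. The 9 genes were taken by symbol from the 31053 genes in the deposited count matrices, each symbol with a single row. The largest changes to pass the test were higher Ccr2 and lower Cxcr4 at 4 °C in macrophages, and lower Cxcr4 also passed in B and T cell classes.

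These receptors are membrane-spanning proteins that couple to inhibitory G proteins and steer cells along gradients of a ligand. Cxcr4 responds to Cxcl12 and holds lymphocytes and myeloid cells in tissue niches, whereas S1pr1 responds to sphingosine-1-phosphate in blood and lymph and lets lymphocytes leave. Cxcr5 and Ccr7 guide cells to B cell follicles and to T cell zones of lymph nodes, Ccr6, Ccr10 and Cxcr6 are known from cells that settle in barrier and peripheral tissues, and Cxcr3 and Ccr2 bring effector T cells and monocytes to inflamed tissue.

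The cells were ChAT-eGFP+ cells, sorted as live single cells from the stromal vascular fraction of inguinal white fat of male ChATBAC-eGFP mice, which carry green fluorescent protein under the choline acetyltransferase promoter on a bacterial artificial chromosome. Mice entered at 5 weeks of age, were kept at thermoneutrality (30 °C) for 3 weeks, and were taken at 8 weeks of age. The 30 °C group remained at 30 °C for the last 4 h, and the 4 °C group spent 24 h at room temperature and then 4 h at 4 °C. Each group had 2 libraries of droplet 3′ RNA counts, each from 4 pooled mice, so n = 2 per group throughout, and all cells in both groups carry the reporter transgene, which marks promoter activity of the transgene and not acetylcholine release.

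The libraries held 76058112 to 84468931 unique molecular identifiers (UMIs, 1 per captured RNA molecule) in 6272 to 6883 barcodes, and 21253 of 26654 barcodes passed the filters. Libraries shared 10 to 18 barcode sequences per pair, at most 0.287% of the smaller library. Marker genes, none of them a receptor described here, placed 19331 cells (91.0%) in 19 classes, and 15 classes with at least 20 cells in every library were tested. Cell counts ran from 84 lymphatic endothelial cells to 7237 Ighd-positive B cells. Of marker RNA that the gates did not use, a Cd14 UMI was found in 66.0% to 84.6% of cells in the 3 macrophage classes, in 19.9% of Eomes-positive T cells and in 0% to 0.826% of the other T cell classes, and an Il17a UMI in 29.7% of gamma-delta T cells. The type 2 innate lymphoid cell (ILC2) gate was less sharp. Cd3e was found in 0.444% and Trdc in 11.1% of its cells, and 550 of the 900 cells sat at the gate's minimum of 3 of 6 markers. Il1rl1, the interleukin 33 receptor, was in 17.2% of them, no more than in Treg cells (19.9%), proliferating T cells (19.8%) or Mrc1 Folr2 macrophages (37.8%). Chat RNA itself had a UMI in 70.0% of germinal centre B cells, 6.09% of Mrc1 Folr2 macrophages and 0% of stromal cells. Macrophages made up 2.93% and 3.06% of cells in the 30 °C libraries, 7.98% in 4 °C replicate 1 and 2.81% in 4 °C replicate 2.

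The sequence before the Cxcr4 start is shown because Cxcr4 was the receptor with the same direction of difference in every class tested. It is RefSeq's, from build GRCm38.p6, minus strand, chr1:128592300-128592549, 5′ to 3′, the 250 bases before the annotated start. Capitals mark letters matched by 1 of 7 motifs searched on both strands.
Cxcr4: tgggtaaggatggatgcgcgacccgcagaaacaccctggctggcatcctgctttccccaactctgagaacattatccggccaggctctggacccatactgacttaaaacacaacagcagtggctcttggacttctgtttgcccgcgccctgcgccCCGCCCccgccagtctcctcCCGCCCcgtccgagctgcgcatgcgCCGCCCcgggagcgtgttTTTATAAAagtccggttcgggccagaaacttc
The window held 3 GC boxes (GGGCGG, present in 32.7% of 32851 promoter windows of the same length) and 2 matches to the TATA box (TATAAA, 12.4% of windows), which lie on opposite strands and overlap. It held no match to CCAAT (33.8%), the AP-1 element TGANTCA (6.75%), the cAMP response element TGACGTCA (1.55%), the E-box CACGTG (6.02%) or the FOXO element TGTTTAC (3.17%). Its GC content was 61.2%, against a median of 52.4% over all windows. These are letter matches only.

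Receptor levels across classes are given in CPM, the UMIs of a receptor summed over all cells of a class in a library, divided by all UMIs of those cells and scaled to a total of 1000000. Ranges run over the 4 libraries. Stromal cells gave the background level, with Cxcr4, Cxcr6 and Ccr7 at 0 CPM in all 4 libraries and the other receptors at 0 to 21.3 CPM.

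**Figure D1:**
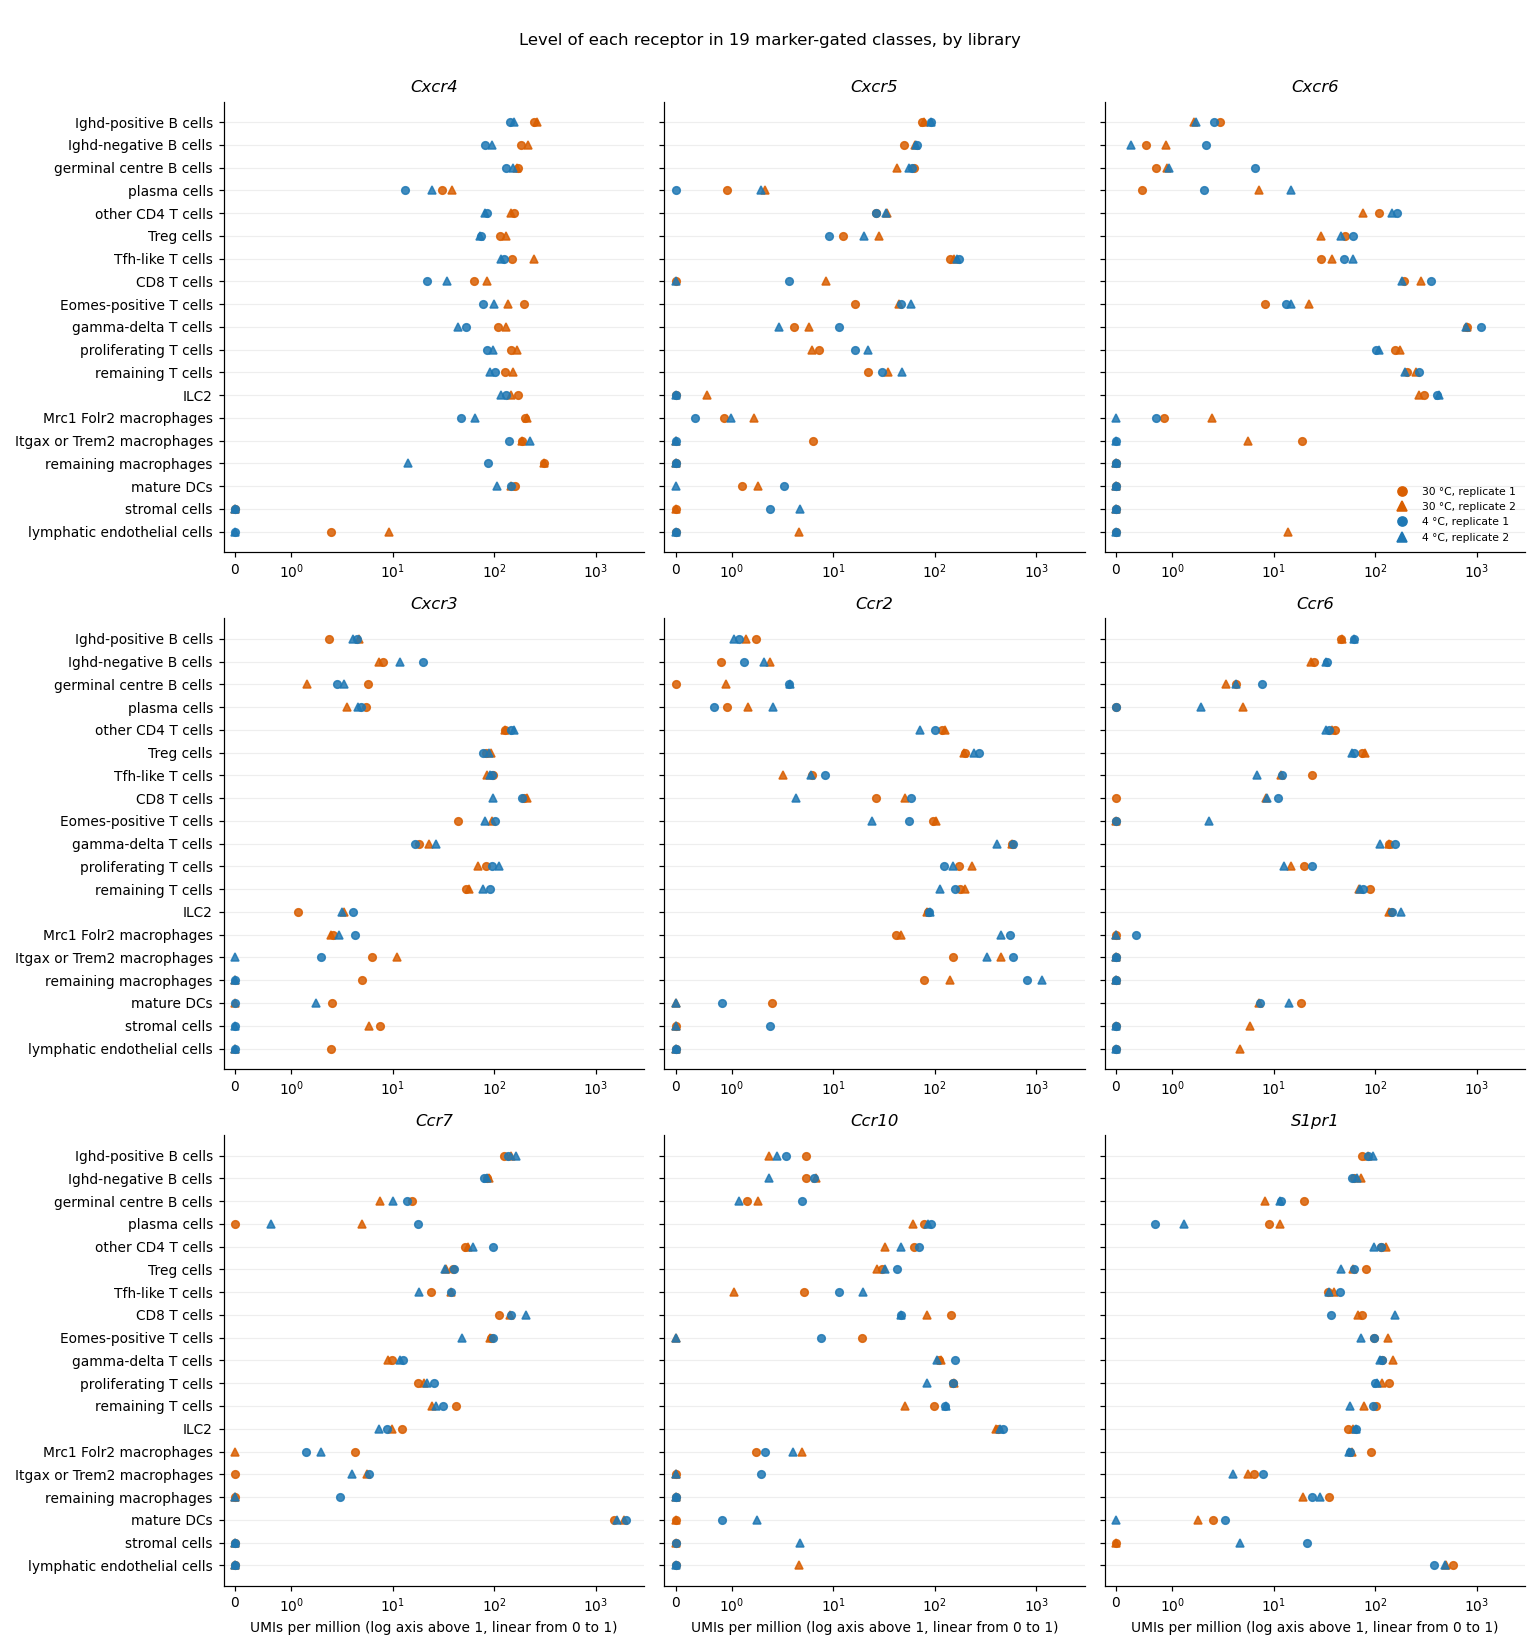
Level of each receptor in 19 classes, in CPM (log axis above 1, linear from 0 to 1), with 1 point per library (orange, 30 °C; blue, 4 °C; circles, replicate 1; triangles, replicate 2). Cxcr4 is spread over all blood-derived classes, while Ccr7 stands at 1504 to 2007 CPM in mature DCs and Cxcr6 at 781 to 1090 CPM in gamma-delta T cells.

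Cxcr4 (ENSMUSG00000045382, chr1:128588199-128592293) had the widest spread over cells, with a UMI in 58.2% of kept cells. Its mean level was highest in Ighd-positive B cells, the IgD-bearing naive type, at 144 to 266 CPM. The ranges of the classes next in order, Itgax or Trem2 macrophages, remaining macrophages, Tfh-like T cells and germinal centre B cells, overlapped with it and with each other. S1pr1 (ENSMUSG00000045092, chr3:115710433-115715072) was highest in lymphatic endothelial cells, at 379 to 582 CPM, a range that overlapped no other class. Among lymphocytes it was at 112 to 149 CPM in gamma-delta T cells, 98.4 to 138 CPM in proliferating T cells and 97.1 to 127 CPM in other CD4 T cells, which do not separate beyond their spread.

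Cxcr5 (ENSMUSG00000047880, chr9:44511787-44561877), the receptor for the follicle chemokine Cxcl13, was highest in Tfh-like T cells, at 140 to 172 CPM. Ighd-positive B cells came next at 74.7 to 91.9 CPM, apart from the classes on either side. Ccr7 (ENSMUSG00000037944, chr11:99144196-99155077), the receptor for Ccl19 and Ccl21, reached 1504 to 2007 CPM in mature DCs, cells named for the maturation gene Fscn1. The next levels were 112 to 204 CPM in CD8 T cells and 125 to 164 CPM in Ighd-positive B cells, which overlap.

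Ccr6 (ENSMUSG00000040899, chr17:8236043-8257141), the receptor for Ccl20, was highest in ILC2, at 137 to 178 CPM, and gamma-delta T cells, at 112 to 157 CPM, whose ranges overlap. Ccr10 (ENSMUSG00000044052, chr11:101172997-101175443), the receptor for Ccl27 and Ccl28, stood at 406 to 466 CPM in ILC2, apart from the 84.0 to 154 CPM of proliferating T cells in the next place. Cxcr6 (ENSMUSG00000048521, chr9:123806475-123811760), the receptor for Cxcl16, was at 781 to 1090 CPM in gamma-delta T cells and at 269 to 426 CPM in ILC2, with no overlap between them.

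Cxcr3 (ENSMUSG00000050232, chrX:101731535-101734269), the receptor for Cxcl9 and Cxcl10, was highest in CD8 T cells, at 97.6 to 211 CPM, and other CD4 T cells, at 129 to 158 CPM, which overlap. Ccr2 (ENSMUSG00000049103, chr9:124101950-124113557), the receptor for Ccl2, Ccl7 and Ccl12, was at 414 to 589 CPM in gamma-delta T cells and 193 to 272 CPM in Treg cells, while remaining macrophages, with the highest mean, ran from 79.2 to 1143 CPM. In Mrc1 Folr2 macrophages it ran from 41.2 to 551 CPM with the split by temperature. Levels of Ccr2 in B cells were 1.41 to 1.63 CPM and those in mature DCs 0 to 2.49 CPM, within the stromal range of 0 to 2.37 CPM or just above it.

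Differences between classes were tested in 9 pairs by edgeR's quasi-likelihood test on summed counts with the library as a factor and Benjamini-Hochberg adjustment over all genes tested (threshold 0.05, written "edgeR adjusted p"). In all, 61 receptor tests passed, where the share of all genes called ran from 15.8% to 62.1% per pair. Some receptors were near absent in 1 class of a pair and could pass the filter on low counts through the other. Examples are Cxcr5, with 8 UMIs in plasma cells and 1 in ILC2, and Ccr6, with 2 in Eomes-positive T cells. Receptor counts per pair are therefore not directly comparable with the shares of all genes given beside them. Fold changes here are on the log2 scale after edgeR's scaling of library composition (TMM).

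**Figure D2:**
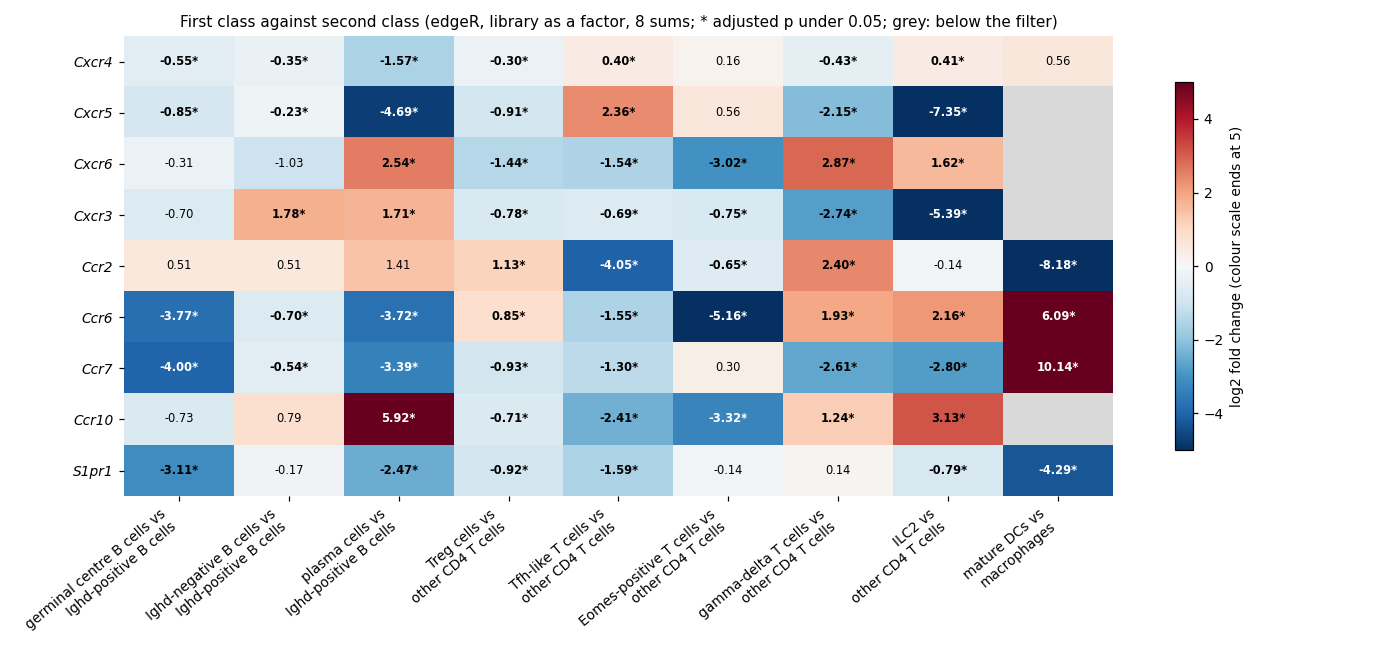
Log2 fold change of each receptor in the first class against the second, with the colour scale ending at 5, asterisks for an adjusted p under 0.05 and grey for receptors below the filter on low counts. Mature DCs against macrophages show the widest contrast, from -8.18 for Ccr2 to 10.14 for Ccr7.

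Germinal centre B cells, the class of B cells that mutate their antibody genes in follicles, had lower receptor RNA than Ighd-positive B cells for 5 of 9 receptors and higher for 0, where 32.9% of all genes tested were called lower and 62.1% were called in either direction. Ccr7 was at 7.54 to 15.5 CPM against 125 to 164 CPM, a log2 difference of -4.00 (SE 0.15, edgeR adjusted p = 2.1e-10). Ccr6 differed by -3.77 (SE 0.14) and S1pr1 by -3.11 (SE 0.15), whereas Cxcr5 differed by -0.85 (SE 0.09) and Cxcr4 by -0.55 (SE 0.10). As folds, the differences were 1.80 for Cxcr5 and 1.46 for Cxcr4, both receptors that place B cells within follicles, against 13.7 for Ccr6 and 8.65 for S1pr1. Ighd-negative B cells differed from Ighd-positive B cells for 5 of 9 receptors, beside 17.6% of all genes. Cxcr3 was the receptor higher in them, at 7.40 to 19.7 CPM against 2.37 to 4.60 CPM (1.78, SE 0.22, edgeR adjusted p = 1.3e-04), and Ccr6, Ccr7, Cxcr4 and Cxcr5 were lower by 0.70, 0.54, 0.35 and 0.23 on the log2 scale.

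Plasma cells, which secrete antibody, differed from Ighd-positive B cells for 8 of 9 receptors, beside 44.7% of all genes. Immunoglobulin RNA took 66.6% to 71.1% of plasma cell UMIs and 2.01% to 2.84% of those of Ighd-positive B cells. CPM and TMM-scaled differences are therefore not the same in this pair, and both are given for the receptors that passed. Ccr10 was at 60.7 to 92.1 CPM in plasma cells against 2.33 to 5.41 CPM, a TMM-scaled difference of 5.92 (SE 0.20, edgeR adjusted p = 1.2e-09) and a log2 ratio of mean CPM of 4.50. Cxcr5 had 8 UMIs in plasma cells against 5641, a CPM ratio of 69.3 (95% counting interval 35.2 to 161). Its TMM-scaled difference was -4.69 and its log2 ratio of mean CPM -6.08. Ccr6, Ccr7, S1pr1 and Cxcr4 were lower in plasma cells, with TMM-scaled differences of -3.72, -3.39, -2.47 and -1.57. Their log2 ratios of mean CPM were -4.97, -4.61, -3.91 and -2.93. Cxcr3 passed with 1.71 (SE 0.40, edgeR adjusted p = 0.00489), but its log2 ratio of mean CPM was 0.24. Cxcr6, at 0.452 to 14.8 CPM, passed with 2.54 (SE 0.79, edgeR adjusted p = 0.0220). Its log2 ratio of mean CPM was 1.47, and its CPM was higher in plasma cells in 2 of the 4 libraries. The Cxcr6 call was lost without 30 °C replicate 2 (2.23, edgeR adjusted p = 0.118) and without 4 °C replicate 2 (1.56, edgeR adjusted p = 0.150).

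Among T cells, other CD4 T cells were the common reference, so the comparisons share those libraries. Treg cells, the Foxp3-bearing suppressor class, differed for 9 of 9 receptors, beside 21.3% of all genes. Ccr2 was higher, at 193 to 272 CPM against 72.0 to 127 CPM (1.13, SE 0.12, edgeR adjusted p = 3.9e-07), and so was Ccr6 (0.85, SE 0.10). The receptors lower in Treg cells ranged from Cxcr6 at -1.44 (SE 0.09) to Cxcr4 at -0.30 (SE 0.07). Tfh-like T cells, chosen by Bcl6, Pdcd1, Il21 and Tox2, also differed for 9 of 9 receptors, beside 15.8% of all genes. Their Cxcr5 was higher by 2.36 (SE 0.11, edgeR adjusted p = 8.9e-12). Ccr2 was lower by 4.05 on the log2 scale (SE 0.19), at 3.18 to 8.25 CPM. Cxcr4 was higher by 0.40 (SE 0.10, edgeR adjusted p = 0.00945), and that call was lost without 30 °C replicate 2 (0.30, edgeR adjusted p = 0.116) and without 4 °C replicate 2 (0.38, edgeR adjusted p = 0.0513).

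Gamma-delta T cells differed from other CD4 T cells for 8 of 9 receptors, beside 28.3% of all genes. Cxcr6 was higher by 2.87 (SE 0.11, edgeR adjusted p = 7.3e-14), Ccr2 by 2.40 (SE 0.09) and Ccr6 by 1.93 (SE 0.12). Cxcr3, the receptor of type 1 effector cells, was lower by 2.74 on the log2 scale (SE 0.15), Ccr7 by 2.61 (SE 0.20) and Cxcr5 by 2.15 (SE 0.29). Cxcr4 was lower with -0.43 (SE 0.12, edgeR adjusted p = 0.00951), lost without 30 °C replicate 1 (-0.41, edgeR adjusted p = 0.0567) and without 4 °C replicate 1 (-0.36, edgeR adjusted p = 0.0793). Eomes-positive T cells, chosen by Eomes and the cytotoxic gene Nkg7, were lower for 5 of 9 receptors and higher for 0, beside 10.3% of all genes called lower and 21.2% called in either direction. Ccr6 had 2 UMIs in them against 287, a CPM ratio of 40.9 (95% counting interval 11.2 to 339), and Cxcr6 differed by -3.02 (SE 0.24). Their Ccr2 difference of -0.65 (SE 0.18, edgeR adjusted p = 0.0121) was lost without 4 °C replicate 1 (-0.60, edgeR adjusted p = 0.0720) and without 4 °C replicate 2 (-0.40, edgeR adjusted p = 0.103).

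ILC2 are tissue innate cells that make type 2 cytokines. The class gated under that name differed from other CD4 T cells for 8 of 9 receptors, beside 39.7% of all genes. Its gate was less sharp, as given above, so the values hold for the gated cells. Ccr10 was higher by 3.13 (SE 0.11, edgeR adjusted p = 5.4e-13), Ccr6 by 2.16 (SE 0.11) and Cxcr6 by 1.62 (SE 0.08). Cxcr3 was at 1.16 to 4.08 CPM in ILC2 and lower by 5.39 on the log2 scale (SE 0.17), and Cxcr5 had 1 UMI against 239, a CPM ratio of 264 (95% counting interval 47.0 to 10490). Mature DCs differed from macrophages for 4 of 5 receptors, beside 57.5% of all genes. All 4 were near absent in 1 of the classes and could pass the filter on low counts through the other. The count is therefore not comparable with that share. S1pr1 had 7 against 419 UMIs and Ccr6 44 against 1. Cxcr4, with 509 against 1031 UMIs, did not pass (0.56, SE 0.26, edgeR adjusted p = 0.0871). Ccr7, which brings maturing DCs to lymph nodes, had 6581 UMIs in mature DCs against 17 in macrophages (10.14, SE 0.22, edgeR adjusted p = 2.5e-10). Ccr2 had 3 against 3011 UMIs, a CPM ratio of 459 in favour of macrophages (95% counting interval 157 to 2226). Counting intervals cover counting error only.

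The effect of temperature was tested within each class, 2 libraries against 2, by the same edgeR test over all genes of that class. Over the finer classes, 21 receptor tests passed, of which 8 concerned Cxcr4. The share of all genes called ran from 0.166% in Eomes-positive T cells to 17.1% in Mrc1 Folr2 macrophages. Libraries of 4 pooled mice are the replicates, so these values rest on the spread between 2 libraries per group. In edgeR that spread is moderated toward the trend over all genes of the class. Spread between single mice was not measured.

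**Figure D3:**
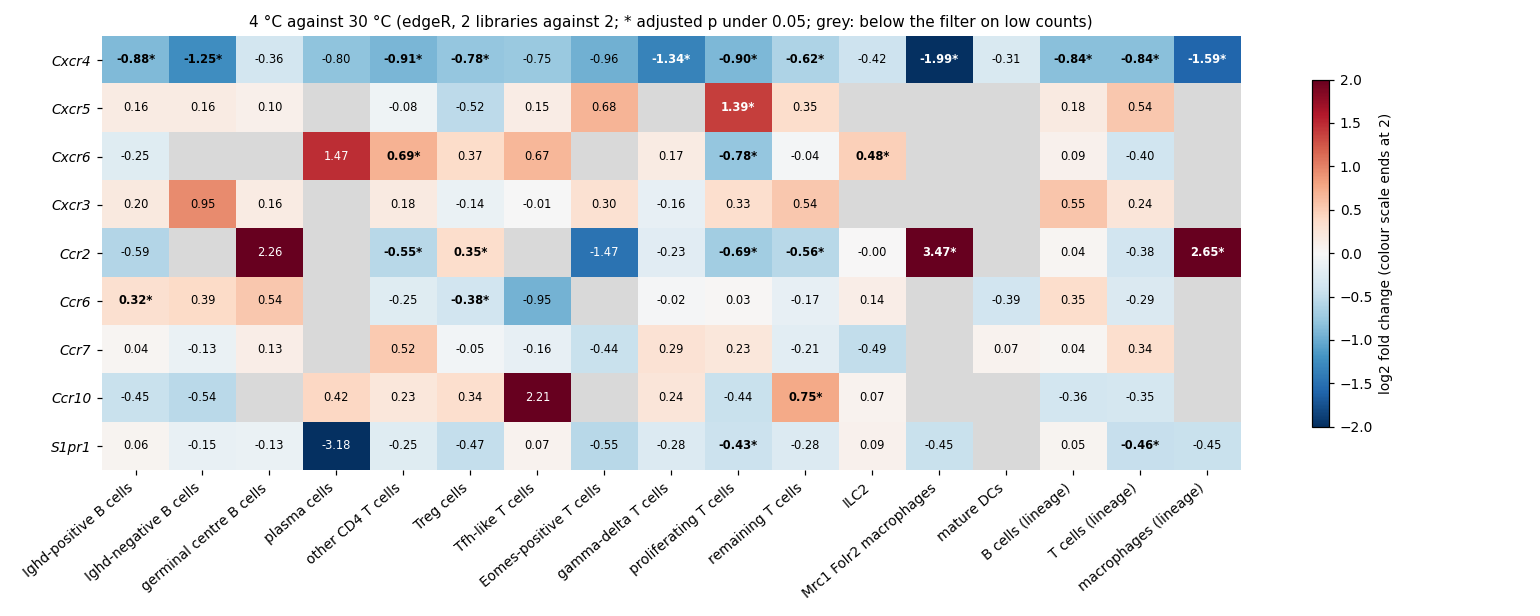
Log2 fold change of 4 °C against 30 °C for each receptor in the tested classes and in the B, T and macrophage lineages, with the colour scale ending at 2, asterisks for an adjusted p under 0.05 and grey for receptors below the filter. The Cxcr4 row is negative throughout, and Ccr2 in Mrc1 Folr2 macrophages has the largest rise, 3.47.

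Cxcr4 was lower at 4 °C in 14 of 14 finer classes in which it was tested, with log2 differences from -1.99 to -0.31 and a median of -0.84, and 8 of these passed the test. Medians over all genes were within 0.012 of 0 on the log2 scale in each of these classes. The 14 classes come from the same libraries, so they are not 14 separate results. How many of all genes kept 1 direction over these classes was not counted. A summed level does not tell fewer cells with receptor RNA from less RNA per cell. In Ighd-positive B cells Cxcr4 was at 248 and 266 CPM in the 30 °C libraries and at 144 and 158 CPM in the 4 °C libraries. These groups do not overlap, and Cxcr4 fell by 0.88 on the log2 scale (SE 0.06, edgeR adjusted p = 5.1e-06), in a class where 2 of 9 receptors and 13.9% of all genes were called. In Ighd-negative B cells it was at 185 and 214 CPM and then at 80.4 and 94.6 CPM (-1.25, SE 0.10, edgeR adjusted p = 9.8e-04, with 1 of 7 receptors and 1.71% of all genes called). This call was lost without 30 °C replicate 1 (-1.31, edgeR adjusted p = 0.0742) and without 30 °C replicate 2 (-1.18, edgeR adjusted p = 0.455). Over the whole B lineage without plasma cells the difference was -0.84 (SE 0.08, edgeR adjusted p = 0.0216, 1 of 9 receptors and 0.917% of all genes called), and it no longer passed without 4 °C replicate 1 (-0.76, edgeR adjusted p = 0.237) or 4 °C replicate 2 (-0.92, edgeR adjusted p = 0.171).

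**Figure D4:**
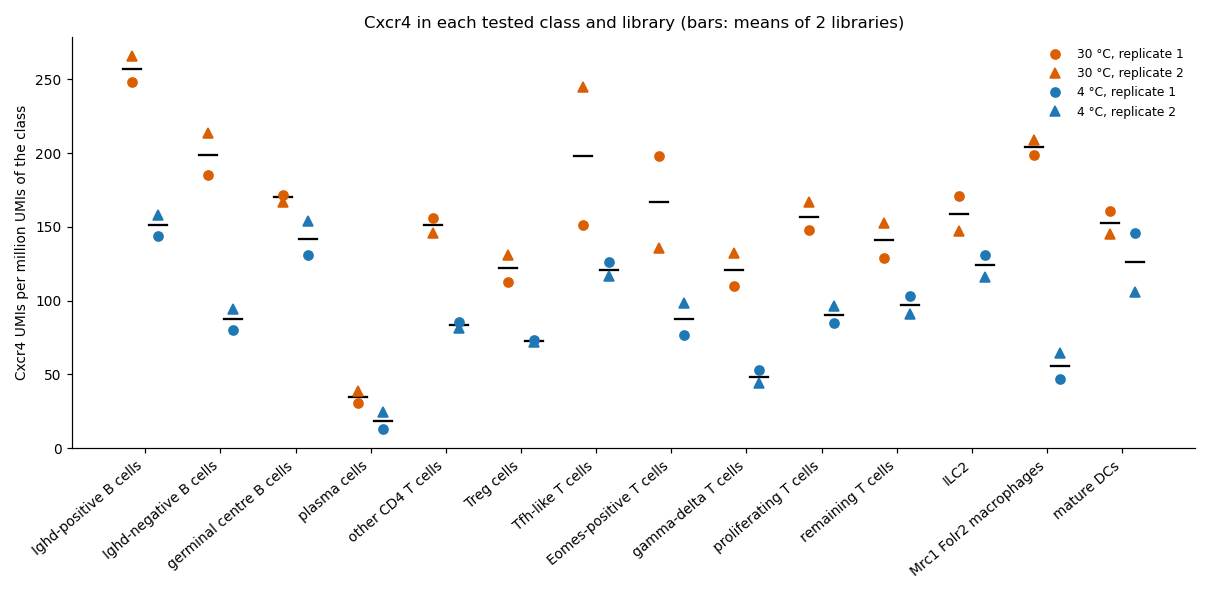
Cxcr4 level in CPM in each class and library (orange, 30 °C; blue, 4 °C; circles, replicate 1; triangles, replicate 2) with bars at the means of 2 libraries. Both 4 °C libraries lie below both 30 °C libraries in all 14 classes shown except mature DCs, where 146 CPM at 4 °C is above 145 CPM at 30 °C.

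In T cells as a lineage Cxcr4 was at 135 and 155 CPM at 30 °C, against 83.6 and 85.3 CPM at 4 °C (-0.84, SE 0.08, edgeR adjusted p = 0.00239, 2 of 9 receptors and 8.36% of all genes called). All 7 tested T cell classes were negative and 5 passed. Treg cells were at 113 and 131 CPM and then at 73.4 and 72.2 CPM (-0.78, SE 0.09, edgeR adjusted p = 4.6e-05, in a class with 3 of 9 receptors and 5.63% of all genes called). Other CD4 T cells were at 156 and 146 CPM and then at 85.5 and 81.2 CPM (-0.91, SE 0.11, edgeR adjusted p = 9.7e-06, 3 of 9 receptors and 3.17% of all genes called). Both groups lie apart in each of these classes. Proliferating T cells showed -0.90 (SE 0.10, edgeR adjusted p = 3.8e-05), with 5 of 9 receptors and 6.92% of all genes called. This class was gated before the other T cell classes and is a mixture. A Foxp3 UMI was found in 47.3% and a Trdc UMI in 19.6% of its cells. The part of that mixture in its receptor differences, here and below, was not tested. Gamma-delta T cells, with the largest Cxcr4 difference among the tested T cell classes, were at 110 and 132 CPM and then at 53.0 and 44.0 CPM (-1.34, SE 0.20, edgeR adjusted p = 2.9e-04, 1 of 8 receptors and 3.24% of all genes called). There the call was lost without 4 °C replicate 1 (-1.53, edgeR adjusted p = 0.535) and without 4 °C replicate 2 (-1.28, edgeR adjusted p = 0.444), and 4 °C replicate 2 held 40 of these cells. Remaining T cells showed -0.62 (SE 0.13, edgeR adjusted p = 0.00836, 3 of 9 receptors and 2.94% of all genes called), lost without 30 °C replicate 2 (-0.49, edgeR adjusted p = 0.158). CD8 T cells, with too few cells to be tested, were at 63.9 and 84.5 CPM and then at 21.7 and 33.9 CPM, from 36 UMIs in all.

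Of the tested classes Mrc1 Folr2 macrophages, chosen by these markers of tissue-resident macrophages, had the largest Cxcr4 difference. Cxcr4 was at 199 and 209 CPM at 30 °C, against 46.6 and 64.5 CPM at 4 °C, and it fell by 1.99 on the log2 scale (SE 0.16, edgeR adjusted p = 1.5e-06, 2 of 3 receptors and 17.1% of all genes called). Over all macrophages it was at 212 and 220 CPM and then at 63.3 and 91.7 CPM (-1.59, SE 0.15, edgeR adjusted p = 4.9e-06, 2 of 3 receptors and 17.7% of all genes called). Both calls held in every alternative in which they were computed, with edgeR or DESeq2 adjusted p of at most 5.4e-04. Smaller macrophage classes had under 20 cells in at least 1 library and were not tested. Itgax or Trem2 macrophages were at 189 and 189 CPM and then at 140 and 223 CPM, which overlap, whereas remaining macrophages, at 307 and 309 CPM and then at 87.2 and 14.1 CPM, differed by more than the Mrc1 Folr2 class, with 12 cells and 1 Cxcr4 UMI in 4 °C replicate 2.

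In 6 further classes the Cxcr4 difference was negative but did not pass. ILC2 were at 171 and 147 CPM and then at 131 and 116 CPM (-0.42, SE 0.12, edgeR adjusted p = 0.0530). The values were -0.36 in germinal centre B cells (edgeR adjusted p = 0.272), -0.80 in plasma cells (edgeR adjusted p = 0.392), -0.75 in Tfh-like T cells (edgeR adjusted p = 0.149), -0.96 in Eomes-positive T cells (edgeR adjusted p = 0.384) and -0.31 in mature DCs (edgeR adjusted p = 0.494). A p above the threshold does not show that the level was equal in these classes. In 5 of them, germinal centre B cells, plasma cells, Tfh-like T cells, Eomes-positive T cells and mature DCs, edgeR and DESeq2 each called 0 receptors. By edgeR 0.677%, 1.07%, 0.335%, 0.166% and 1.62% of all genes were called there. DESeq2 gave an adjusted p for 2, 4, 3, 6 and 2 receptors in that order, so its 0 does not cover the rest. At an unadjusted edgeR p under 0.05 the counts were 2 of 7, 2 of 4, 4 of 8, 2 of 6 and 0 of 3 receptors. The shares of all genes at that threshold were 9.94%, 11.3%, 8.24%, 8.14% and 13.6% in the same order.

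Shares of cells with a Cxcr4 UMI were compared after each cell was thinned to 4292 UMIs, with 396 to 629 shallower cells left out per library. In B cells the thinned share was 60.9% and 61.6% at 30 °C and 39.1% and 45.8% at 4 °C. T cells were at 35.7% and 39.7% and then at 24.1% and 23.4%. In Mrc1 Folr2 macrophages it was 50.0% and 48.3% at 30 °C and 11.8% and 16.3% at 4 °C, and 71.6%, 71.5%, 18.8% and 20.9% in that order without thinning. The groups do not overlap in these 3, each with an exact two-sided permutation p = 0.333, the smallest that 2 against 2 libraries can give. Stromal cells, with a median of 5606 UMIs against 8618 in Mrc1 Folr2 macrophages, had a Cxcr4 UMI in 0 of 61 cells after the same thinning (exact binomial 95% upper limit 5.87%).

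Ccr2, best known for bringing monocytes out of bone marrow and into tissue, had the largest rise of the 9 receptors among the classes tested, in macrophages. In Mrc1 Folr2 macrophages Ccr2 was at 41.2 and 46.9 CPM at 30 °C, against 551 and 452 CPM at 4 °C, from 105 and 2018 UMIs in all. It rose by 3.47 on the log2 scale (SE 0.16, edgeR adjusted p = 5.2e-09), an 11.1-fold difference. In all macrophages it was at 57.6 and 104 CPM and then at 581 and 465 CPM (2.65, SE 0.20, edgeR adjusted p = 3.7e-07), and leaving out any library left both calls in place. The thinned share of Mrc1 Folr2 macrophages with a Ccr2 UMI was 6.60% and 10.2% at 30 °C and 38.3% and 37.0% at 4 °C (exact two-sided permutation p = 0.333, the smallest possible), and 15.5%, 20.0%, 37.7% and 39.1% without thinning. In stromal cells 0 of 61 thinned cells held a Ccr2 UMI (exact binomial 95% upper limit 5.87%), and 1 of 113 (0.885%) without thinning. Untested classes were at 79.2 and 140 CPM and then at 812 and 1143 CPM in remaining macrophages, and at 151, 445, 594 and 326 CPM in Itgax or Trem2 macrophages, where the groups overlap.

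**Figure D5:**
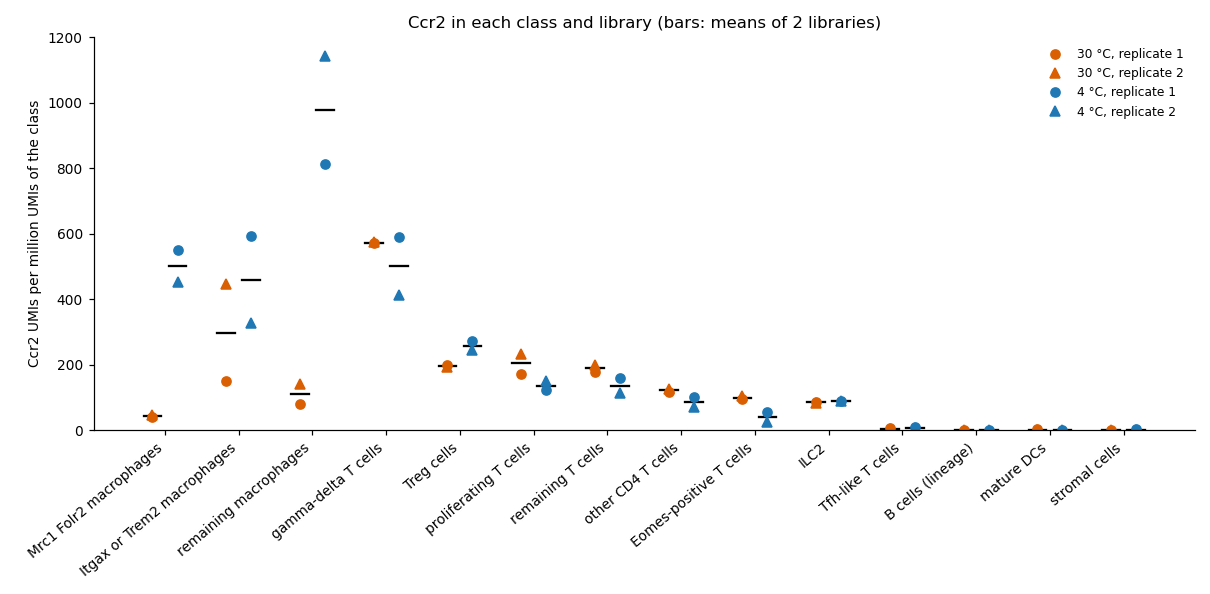
Ccr2 level in CPM in each class and library, with bars at the means of 2 libraries and symbols for temperature and replicate as in the key. Mrc1 Folr2 macrophages go from 41.2 and 46.9 CPM at 30 °C to 551 and 452 CPM at 4 °C, whereas gamma-delta T cells stand at 571 and 574 CPM and at 589 and 414 CPM.

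Markers of other cells were read beside this result. In Mrc1 Folr2 macrophages the summed level of 6 monocyte markers was 36.0 and 29.6 CPM at 30 °C, against 18.3 and 23.8 CPM at 4 °C, with Chil3 and Vcan at 0. A list of 5 conventional DC markers was at 54.0 and 47.7 CPM and then at 80.4 and 76.4 CPM. Without the cells that held a UMI of either list, an alternative added after the data were seen, the difference of mean log2 CPM between 4 °C and 30 °C was 3.66 for Ccr2, against 3.51 with all cells, and -1.88 for Cxcr4, against -1.90. In all macrophages the monocyte list was at 34.1 and 76.1 CPM and then at 55.1 and 198 CPM, and the same difference was 3.17 for Ccr2 without those cells and 2.75 with them. Of all macrophages, 425 of 892 came from 4 °C replicate 1.

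The Mrc1 Folr2 class did not hold the same clusters at both temperatures. Gated macrophages were clustered without the 9 receptors, a step added after the data were seen, and gave 5 clusters, left unnamed here. Cluster 2, led by Mt1 and Vcam1, held 82.8% and 90.0% of Mrc1 Folr2 macrophages in the 30 °C libraries and 0% in both 4 °C libraries. Cluster 4, led by Marcks and Ctsc, held 4.31% and 3.85% at 30 °C and 91.8% and 90.4% at 4 °C. The differences of Ccr2 and Cxcr4 given above therefore set mostly cluster 2 cells against cluster 4 cells, and a change within cells cannot be told apart from a change in which cells were present. In cluster 2 the 30 °C cells had Ccr2 at 26.7 and 36.3 CPM and Cxcr4 at 190 and 203 CPM. In cluster 4 the 4 °C cells had Ccr2 at 550 and 479 CPM and Cxcr4 at 35.3 and 40.3 CPM. The 5 cells that each 30 °C library had in cluster 4 held 2 and 14 Ccr2 UMIs, or 370 and 484 CPM. They held 0 and 18 Cxcr4 UMIs, or 0 and 622 CPM, on either side of the 4 °C values. Cluster 3, led by the proliferation genes Stmn1 and Tubb5, held cells of all 4 libraries (10, 4, 16 and 2), with Ccr2 at 120 and 63.2 CPM at 30 °C and at 743 and 1142 CPM at 4 °C. Cxcr4 in cluster 3 was at 279 and 237 CPM and then at 126 and 190 CPM, so both groups lie apart there for both genes. Cluster 1, led by Lgals3 and Lpl, also held cells of all 4 libraries (5, 4, 10 and 8). Its Ccr2 was at 28.5 and 13.1 CPM at 30 °C and at 126 and 42.8 CPM at 4 °C, which lie apart. Its Cxcr4, at 161 and 105 CPM and then at 126 and 75.0 CPM, overlapped. Both clusters rest on few cells, with no test.

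T cell classes differed in the direction of Ccr2. Treg cells were at 199 and 193 CPM at 30 °C, against 272 and 244 CPM at 4 °C, and Ccr2 rose by 0.35 (SE 0.07, edgeR adjusted p = 0.00764), a call lost without 4 °C replicate 1 (0.26, edgeR adjusted p = 0.0657). Proliferating T cells were at 173 and 234 CPM and then at 122 and 150 CPM (-0.69, SE 0.13, edgeR adjusted p = 0.00348), lost without 30 °C replicate 2 (-0.44, edgeR adjusted p = 0.163). Other CD4 T cells were at 117 and 127 CPM and then at 100 and 72.0 CPM (-0.55, SE 0.14, edgeR adjusted p = 0.0212), lost without 30 °C replicate 2 (-0.50, edgeR adjusted p = 0.0734) and without 4 °C replicate 2 (-0.33, edgeR adjusted p = 0.311). The difference between Treg cells and the others was not tested. Remaining T cells were at 179 and 200 CPM and then at 159 and 112 CPM (-0.56, SE 0.13, edgeR adjusted p = 0.0220), again lost without 30 °C replicate 2 (-0.49, edgeR adjusted p = 0.114) and 4 °C replicate 2 (-0.32, edgeR adjusted p = 0.178). With DESeq2 Ccr2 was called lower in 0 of the 10 finer classes in which it was tested and higher in 2. With the stricter gates it was called lower in 1. In gamma-delta T cells, the tested class with the highest mean Ccr2 level, the difference was -0.23 (SE 0.13, edgeR adjusted p = 0.399).

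Cxcr6, which marks lymphocytes resident in tissue, rose in ILC2 and other CD4 T cells and fell in proliferating T cells. ILC2 were at 305 and 269 CPM at 30 °C, against 409 and 426 CPM at 4 °C (0.48, SE 0.09, edgeR adjusted p = 0.00597, where 1 of 7 receptors and 6.06% of all genes were called), lost without 30 °C replicate 2 (0.40, edgeR adjusted p = 0.0528). Other CD4 T cells were at 108 and 75.2 CPM and then at 162 and 145 CPM (0.69, SE 0.13, edgeR adjusted p = 0.00191), lost without the same library (0.45, edgeR adjusted p = 0.0788). The groups lie apart in both classes. Proliferating T cells were at 157 and 177 CPM and then at 101 and 108 CPM (-0.78, SE 0.09, edgeR adjusted p = 8.5e-05). Gamma-delta T cells, where Cxcr6 is highest, were at 810 and 794 CPM and then at 1090 and 781 CPM (0.17, SE 0.11, edgeR adjusted p = 0.524), which overlap. The sum over all T cells was lower at 4 °C with -0.40 (SE 0.17, edgeR adjusted p = 0.182), while 4 of the 6 T cell classes tested were positive. Cell numbers moved beside it, with 144 and 155 gamma-delta T cells at 30 °C and 106 and 40 at 4 °C, and 291 and 286 proliferating T cells at 30 °C and 229 and 163 at 4 °C.

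S1pr1, the egress receptor, fell in proliferating T cells from 138 and 117 CPM to 98.4 and 103 CPM (-0.43, SE 0.10, edgeR adjusted p = 0.0118), lost without 30 °C replicate 1 (-0.32, edgeR adjusted p = 0.290) and without 30 °C replicate 2 (-0.54, edgeR adjusted p = 0.0505). Over the T lineage it went from 107 and 96.9 CPM to 84.3 and 70.6 CPM (-0.46, SE 0.10, edgeR adjusted p = 0.0411), lost without 30 °C replicate 1 (-0.38, edgeR adjusted p = 0.217) and without 30 °C replicate 2 (-0.53, edgeR adjusted p = 0.0761). In gamma-delta T cells the value was -0.28 (SE 0.17, edgeR adjusted p = 0.445). Plasma cells held 36 S1pr1 UMIs at 30 °C and 3 at 4 °C, a CPM ratio of 10.0 (95% counting interval 3.16 to 50.8), and the edgeR test did not pass (edgeR adjusted p = 0.0624). B cells, at 69.1, 65.4, 70.7 and 77.4 CPM, showed 0.05 (SE 0.08, edgeR adjusted p = 0.809).

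Ccr6, which B cells and Treg cells carry, moved in opposite directions in those classes. It rose in Ighd-positive B cells from 45.6 and 46.7 CPM to 62.2 and 62.1 CPM (0.32, SE 0.06, edgeR adjusted p = 0.00396) and kept passing without each library. In Treg cells it fell from 73.9 and 79.0 CPM to 61.8 and 59.3 CPM (-0.38, SE 0.10, edgeR adjusted p = 0.0338). That call was lost without 30 °C replicate 1 (-0.42, edgeR adjusted p = 0.0711), 30 °C replicate 2 (-0.33, edgeR adjusted p = 0.175) or 4 °C replicate 2 (-0.34, edgeR adjusted p = 0.0882). ILC2, with the highest mean level, showed 0.14 (SE 0.12, edgeR adjusted p = 0.588). B and T lineages differed in the Ccr6 effect by 0.63 (SE 0.12), with an edgeR adjusted p of 0.138.

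Cxcr5 passed in proliferating T cells, at 7.28 and 6.10 CPM and then at 16.2 and 21.8 CPM (1.39, SE 0.23, edgeR adjusted p = 0.00140), lost without 30 °C replicate 1 (1.51, edgeR adjusted p = 0.0638) and without 30 °C replicate 2 (1.27, edgeR adjusted p = 0.0505). Tfh-like T cells, its class of highest level, were at 140 and 155 CPM and then at 172 and 166 CPM (0.15, SE 0.12, edgeR adjusted p = 0.788). Ccr10 passed in remaining T cells, at 98.9 and 50.5 CPM and then at 127 and 129 CPM (0.75, SE 0.20, edgeR adjusted p = 0.0398), and leaving out 30 °C replicate 2, the library at 50.5 CPM, gave 0.28 (edgeR adjusted p = 0.626). ILC2 showed 0.07 for Ccr10 (SE 0.08, edgeR adjusted p = 0.704).

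Ccr7 and Cxcr3 passed in 0 of 12 and 0 of 10 finer classes by edgeR, and in 0 by DESeq2. At an unadjusted edgeR p under 0.05 Ccr7 counted 1 class, other CD4 T cells, where 15.2% of all genes did so. Cxcr3 counted 3 classes, Ighd-negative B cells, proliferating T cells and remaining T cells, beside 14.4%, 21.3% and 14.5% of all genes. Ccr7 in mature DCs was at 1504 and 1902 CPM and then at 2007 and 1632 CPM (0.07, SE 0.13, edgeR adjusted p = 0.878), which overlap. Cxcr3 in other CD4 T cells was at 129 and 129 CPM and then at 147 and 158 CPM (0.18, SE 0.11, edgeR adjusted p = 0.438). Its lowest adjusted p in a finer class was in remaining T cells, at 53.0 and 56.9 CPM and then at 91.0 and 77.5 CPM (0.54, SE 0.16, edgeR adjusted p = 0.0716).

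Whether the temperature effect differed between B cells, T cells, ILC2 and macrophages was tested by an interaction term for all 6 pairs. Of the receptor tests 7 passed, where the share of all genes called ran from 0.168% to 8.44% per pair. Values are the first lineage's log2 change less that of the second. Each group is again 2 libraries, with the spread moderated toward the trend over all genes. Ccr2 in macrophages alone was at 57.6 and 104 CPM at 30 °C, with an SE of 0.20. Small p values here therefore do not measure the spread between pools alone. The limit that macrophage clusters differed between the temperatures applies here too. For Ccr2 the difference from macrophages was -3.07 in T cells (SE 0.15, edgeR adjusted p = 3.5e-31), -2.65 in ILC2 (SE 0.23, edgeR adjusted p = 2.1e-07) and -2.62 in B cells (SE 0.33, edgeR adjusted p = 7.6e-04), where Ccr2 in B cells is near the stromal level. The share of receptors called was 2 of 9 for T cells, 2 of 7 for ILC2 and 2 of 9 for B cells against macrophages, beside 8.44%, 4.77% and 3.72% of all genes. The receptors tested include some near absent in macrophages, such as Ccr6 with 1 UMI, which could pass the filter through the other lineage. Cxcr4 fell further in macrophages, by 0.72 against T cells (SE 0.15, edgeR adjusted p = 3.0e-04), 1.22 against ILC2 (SE 0.21, edgeR adjusted p = 0.00113) and 0.70 against B cells (SE 0.17, edgeR adjusted p = 0.0438). All 3 were lost without 4 °C replicate 1, where they were 0.44, 0.77 and 0.51, with edgeR adjusted p of 0.216, 0.130 and 0.456, and without 4 °C replicate 2 the value against B cells was 0.83 (edgeR adjusted p = 0.0687). The 3 Cxcr4 differences also did not pass with DESeq2. Cxcr6 differed by -0.89 between T cells and ILC2 (SE 0.15, edgeR adjusted p = 7.4e-04, 1 of 9 receptors and 3.64% of all genes called). B cells against ILC2 and B cells against T cells gave 0 of 9 calls by edgeR, beside 1.01% and 0.168% of all genes. DESeq2 gave 0 as well. With an unadjusted edgeR p under 0.05 the counts were 1 and 2 of 9 receptors, beside 9.08% and 9.53% of all genes.

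Other genes of the same pathways were read from 5 lists: 16 other chemokine receptors, 16 further migration receptors and adhesion molecules, 32 genes of receptor signalling and desensitization, 10 regulators of egress and homing, and 15 ligands of the 9 receptors. These lists were chosen with earlier results of these data known. In macrophages 27 of 59 list genes tested passed, where 17.7% of all genes did, 9.17% higher and 8.53% lower. Of the 892 macrophages 690 were of the Mrc1 Folr2 class, which held different clusters at each temperature. The list genes carry that limit too, and the ligand Ccl2 was among the leading genes of cluster 4. Of 10 ligands 6 were higher at 4 °C and 0 lower, with a median of 0.95 against -0.0048 over all genes. The Ccr2 ligands Ccl12 and Ccl7 rose by 2.98 (SE 0.13, edgeR adjusted p = 2.2e-09) and 2.72 (SE 0.12, edgeR adjusted p = 2.3e-09), from 51.1 and 43.1 to 371 and 398 CPM and from 68.1 and 59.3 to 440 and 429 CPM. Cxcl10, a Cxcr3 ligand, rose by 1.87 (SE 0.48, edgeR adjusted p = 0.0145), with 99.5 and 5.62 CPM in the 30 °C libraries. Among the other chemokine receptors the fractalkine receptor Cx3cr1 (1.68) rose and Ccrl2 (-0.80) fell. Of 8 migration receptors and adhesion genes, the oxysterol receptor Gpr183 (2.26), S1pr2 (2.19) and the integrin Itgal (1.36) rose. Of 30 signalling genes, 11 rose, led by Rgs3 (1.82), Dock8 (1.24) and Arrb1 (0.83), and 3 fell, Rgs1 (-1.21), Gng2 (-0.70) and Pik3r5 (-0.69). Klf3 (-0.66) was the regulator of homing that fell, of 6 tested.

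In T cells 15 of 63 list genes tested passed, beside 8.36% of all genes. Ltb4r1, the leukotriene B4 receptor, fell from 109 and 119 CPM to 37.6 and 25.4 CPM (-1.91, SE 0.17, edgeR adjusted p = 0.00172), and among migration receptors S1pr4 (-0.60) fell and S1pr2 (0.85) rose. Klf2, the transcription factor known to drive S1pr1, fell by 0.51 (SE 0.08, edgeR adjusted p = 0.0151) and Klf3 by 0.36, and Sgpl1, which degrades sphingosine-1-phosphate, rose by 0.41, of 6 regulators. Ccr4 (0.51) and Cxcl10 (0.91) rose, and of 30 signalling genes Rgs3 (0.57), Rgs14 (0.35) and Rgs10 (0.31) led 4 that rose and Pik3cg (-0.43) fell. The T cell count was 2 without 30 °C replicate 1, 5 without 30 °C replicate 2 and 25 without 4 °C replicate 1. ILC2 had 9 calls of 50 tested, beside 6.06% of all genes, among them Ltb4r1 (-1.98, SE 0.10, edgeR adjusted p = 1.3e-08), Klf3 (-1.19) and Arrb2 (-0.52) lower, and Itgb1 (1.02), Rgs2 (0.70), Grk2 (0.61) and Cdc42 (0.34) higher. B cells had 3 calls of 65 tested, beside 0.917% of all genes, Gpr183 (0.90, SE 0.07, edgeR adjusted p = 0.0132), Elmo1 (-0.87), which activates Rac with Dock2, and Ackr1, at 57 UMIs at 30 °C and 1 at 4 °C. The B cell count was 0 without either 4 °C library, 10 without 30 °C replicate 1 and 7 without 30 °C replicate 2.

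Genes with the most similar pattern were found by Pearson's r of mean log2 CPM over the 19 classes, a description over classes that share libraries. For Cxcr4 they were Arhgap30 (0.97), Lrch4 (0.94) and Stxbp2 (0.94). For Cxcr6 they were Aqp3, Il18rap and Cd96 (each 0.96), for Cxcr3 Cd6, Cd28 and Apobec2 (each 0.95), and for Ccr2 Myo1f (0.95), Dok2 (0.94) and Akr1c13 (0.92). Ccr10 was followed by Itgae (0.89), Cntnap1 (0.89) and Gm19585 (0.88), Ccr6 by Edaradd (0.88), Tjp3 (0.87) and Lta (0.87), and Ccr7 by Hscb (0.88), Hsh2d (0.87) and Ly75 (0.85). Cxcr5 was followed by Gm13012, Dus2 and Whrn (each 0.86), and S1pr1 by Gm28875 (0.89), Wdcp (0.85) and Tarbp1 (0.83). Among the receptors the closest pair was Cxcr6 and Ccr10 (0.88), both high in ILC2 and gamma-delta T cells. Within cells thinned to 4292 UMIs, Cxcr6 was found in 44.5% of T cells with a Ccr2 UMI and in 17.2% of those without, and the same order held in Treg cells, at 21.6% and 5.63%.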

How the data were processed

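The authors sorted live single ChAT-eGFP+ cells and made 10x 3′ libraries. Reads were aligned with STAR to mm10 by Cell Ranger (3.0.0 per the file headers, 3.1.0 per the submitters' processing notes), and the deposited values are raw UMI counts per gene and cell barcode. Here cells with over 200 and under 5000 genes and under 7.5% mitochondrial UMIs were kept (scanpy 1.11.5), placed in classes by marker genes, and summed per class and library. Cells with markers of 2 or more classes (1204) or of none (718) were left out, and Scrublet doublets were removed only as an alternative. Gates read free RNA too: Jchain had a UMI in 31.9% of stromal cells.

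Sums were tested with edgeR 4.0.16 (TMM, filterByExpr, quasi-likelihood F test, Benjamini-Hochberg over all genes tested). Each SE is the absolute log2 fold change divided by the square root of that test's F. DESeq2 1.42.0, RLE size factors, no filter, other cell filters and gates, clusters, a replicate block and leaving out each library were the alternatives. The scripts were tested on simulated data. Intervals cover counting error only, and nothing states that the pools came from separate cages or days.

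The receptors, classes and gene lists were chosen with earlier results of these data known. The text names all 9 receptors, with statistics where they passed and in the tested class of highest level, the 3 genes of most similar pattern, and up to 3 rises and 3 falls per list and lineage, except for 2 list genes that are not reported here. Cxcl11 was not analysed here, and Ccl19 and Ccl21a, with 2 entries each, passed the filter on low counts in no lineage. Positions are from GENCODE M21, and the promoter is from RefSeq, which matched 5 of the 9 receptors.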

Additional observations from a re-analysis of the deposited data

Results flagged for a closer look

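The change between 30 °C and 4 °C differed between lineages for 3 receptors by the edgeR interaction test. For Ccr2 the log2 change less that of macrophages was -3.07 in T cells, -2.65 in ILC2 and -2.62 in B cells. Ccr2 itself was at 148 to 217 CPM in T cells, 84.3 to 89.6 CPM in ILC2 and 1.41 to 1.63 CPM in B cells, so the B cell value rests on 144 UMIs in all. For Cxcr4 the fall was larger in macrophages, with differences of 0.72 against T cells, 1.22 against ILC2 and 0.70 against B cells. Without 4 °C replicate 1 these were 0.44, 0.77 and 0.51 and none passed (edgeR adjusted p = 0.216, 0.130 and 0.456), and without 4 °C replicate 2 the value against B cells was 0.83 (edgeR adjusted p = 0.0687). The 3 Cxcr4 differences also did not pass with DESeq2. The macrophage values carry the limit given above, that the clusters present differed between the temperatures. For Cxcr6 the log2 change in T cells less that in ILC2 was -0.89. Gamma-delta and proliferating T cells, which carry much of the Cxcr6 RNA, were fewer at 4 °C, and the part of cell numbers in this difference was not tested.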

How the results depend on the processing

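The count of 21 receptor calls over the finer classes was 14 with DESeq2, 27 with a replicate block and 15 to 26 without 1 library, and the 61 calls between classes were 56 to 66 in every alternative and 59 to 62 without 1 library. The 6 calls over lineages became 12 with clusters in place of gates and 13 with the replicate block, and ran from 6 to 12 without 1 library, with 12 without 4 °C replicate 1. The 7 differences between lineages became 4 with DESeq2 and 12 with no filter on low counts, and ran from 6 to 11 without 1 library, with 11 without 30 °C replicate 2. The cause was not tested. Over the finer classes DESeq2 called no fall of Ccr2 or Ccr6, no rise of Cxcr5 or Ccr10, and 0 receptors in remaining T cells. Of the 21 calls 8 passed in every alternative in which they were computed, and no call changed direction.

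Changes of sign concerned values that had not passed. Ccr10 in ILC2 was -0.01 where cells with 5000 or more genes were kept. Ccr7 in mature DCs ran from -0.10 to 0.28 without 1 library, with -0.10 without 30 °C replicate 1 and -0.04 without 4 °C replicate 1. Cxcr6 in gamma-delta T cells ran from -0.11 to 0.36, with -0.11 without 4 °C replicate 1.

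Libraries of the 2 groups share replicate numbers, which the labels tie to no shared animal or day. Deviations of same-numbered libraries correlated with r of 0.29 in B cells, -0.03 in T cells, -0.10 in ILC2 and 0.05 in macrophages. In the B lineage germinal centre B cells also went with the number, with 92 and 151 cells in replicate 1 of 30 °C and 4 °C and 345 and 288 in replicate 2, so a pairing there was neither shown nor excluded, and the fits were left without the block. The block moved the genes called from 110 to 259 in B cells, 1010 to 1835 in T cells, 525 to 255 in ILC2 and 1606 to 1944 in macrophages. Classes of under 20 cells in a library could not be tested, clusters were not run for the finer classes or class pairs, and the stricter gates gave no count over the finer classes because a class fell under that number. With DESeq2 the pathway list calls were 4 in ILC2, from 9, and 16 in macrophages, from 27.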
